A study of Rattus norvegicus with 28 samples.

Results

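The spinal cord of rats taken 2 weeks after a severe contusion (T2) was compared with the cord of uninjured control animals (T0), by the 4 samples that the labels place in each group. These were 8 of 28 samples in the series, which has 7 groups of 4. All animals were adult female Sprague Dawley rats. The T2 animals received a laminectomy and a contusion of 250 kdyn at the eighth thoracic vertebral level and no transplanted cells, and the tissue was a 1.5 cm length of thoracic cord around the epicentre, cleared of dura. T0 animals are sham in the labels but uninjured in the methods, and neither source states whether these animals had a laminectomy. The methods list tacrolimus (FK-506), which suppresses T cells, in the care of all animals after surgery, timed from the day before transplantation of cells. They also state that injured controls of the transplantation were injected with medium free of cells, and not whether the T2 animals were such controls. Nothing is said of the samples of a group beyond their being 4 biological replicates.

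Total RNA of each sample was labelled with a single dye and hybridised to a whole genome array, on which the brightness of a probe follows the amount of its transcript. Levels are log2 values of the quantile normalised signal, so a difference of 1 is a doubling, and ± after a difference is the standard error of the limma fit over all 28 samples. A feature, that is a gene name of the array, was called where its p, adjusted by Benjamini-Hochberg over the 35469 features tested, was under 0.05. A severe contusion destroys neurons and oligodendrocytes at the epicentre, opens the blood-spinal cord barrier and draws blood monocytes into the lesion, where they become macrophages that take up myelin debris. In the following weeks fibroblast-lineage cells deposit a collagen-rich core, astrocytes form a border around it, and Schwann cells from the roots enter and myelinate axons. The samples hold whole tissue, so fewer cells of a type and less RNA per cell cannot be told apart in anything below.

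The deposited scanner outputs conflict with the value table on which sample some of the arrays belong to. For 16 of the 28 samples, the values rank their probes exactly as a scanner output filed under a different sample does. Among the 8 samples compared here, T0 replicates 1 and 3 and T2 replicates 2 and 3 match their own scanner outputs and were scanned in 1 session (session 1). T0 replicates 2 and 4 and T2 replicates 1 and 4 match outputs deposited under other samples, all from a second session (session 2), and the column of T0 replicate 2 matches the output deposited under T2 replicate 4. Results below come from the value table, in which each column is named by its sample. When each scanner output was instead taken for the sample it was filed under, 1 feature was called for T2 against T0, and 0 features were called for T2 against T1 or T4 against T2. The undisputed arrays of T0 and T2 are those of session 1, 2 in each group. A fit of all 12 undisputed arrays of the series called 11901 features for T2 against T0. A fit of the session 1 arrays of T0 and T2 alone called 9062, so these are not separate checks. Each session held 2 arrays of each group, so session differences are balanced between T0 and T2.

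A large part of the features measured differed between injured and uninjured cord. For T2 against T0, 14176 of 35469 features were called (40.0%), 6294 of them higher (17.7%) and 7882 lower (22.2%). The falls were more numerous and the rises larger. At least 2-fold changes were called in 3263 features that rose (9.20%) and 3450 that fell (9.73%), whereas changes of at least 8-fold were called in 490 that rose and 34 that fell. The median difference of all features was -0.05. The T2 and T0 levels did not overlap in 13123 features (37.0%). Computed within each scan session, the difference had the same sign in both sessions for 14159 of the 14176 features called (99.9%). These features were called from the same arrays, so this share was largely set by the call and is no independent check.

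**Figure D1:**
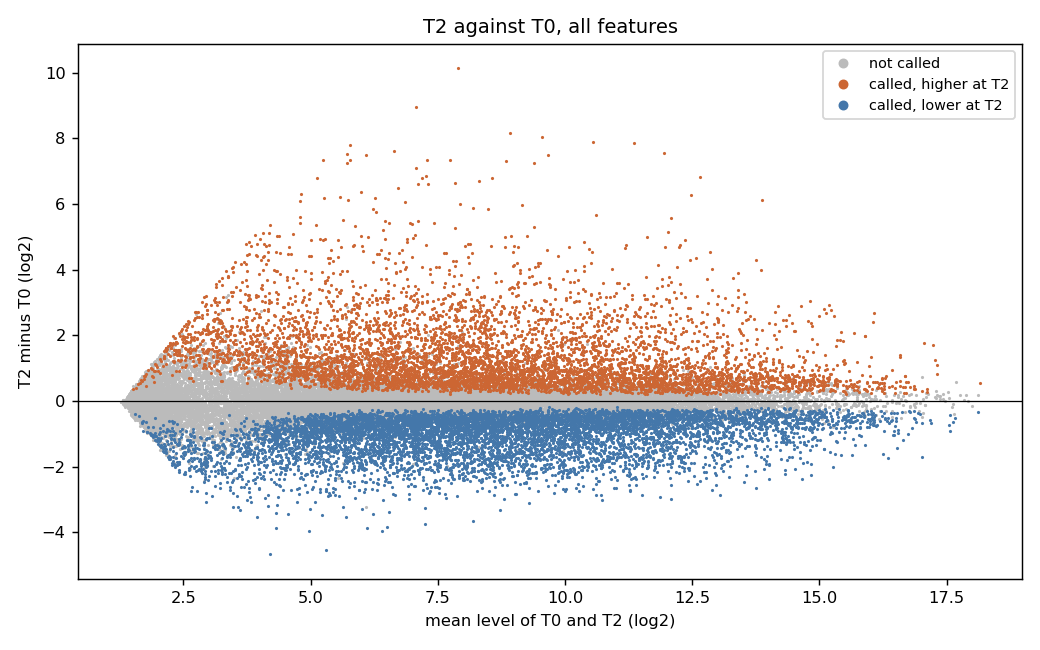
Difference between T2 and T0 (vertical axis, log2) against the mean level of both groups (horizontal axis, log2) for each of the 35469 features, with the 6294 called higher in orange, the 7882 called lower in blue and the others in grey. The points of the largest differences lie above 0, where 490 called features rose at least 8-fold, against 34 that fell as far.

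The tissue carried the markers of spinal cord in both groups, with Gfap, Mbp, Snap25 and 6 of 6 thoracic Hox genes measured well above background on every array. Tissues that could have been taken along were measured by lists as well. Among 8 sensory neuron markers of the dorsal root ganglion, 4 fell and 1 rose, and among 15 skeletal muscle genes 5 fell and 3 rose. Of all features, 22.2% fell and 17.7% rose. The 2 falls of over 2 log2 units in the muscle list were Pvalb at -2.98 ± 0.53 (adjusted p = 7.45e-05) and Tnnc2 at -2.29 ± 0.47 (adjusted p = 3.58e-04), and parvalbumin is also made by spinal neurons. Of 6 red blood cell genes measured, 2 rose and 4 were not called. Arrays differed little in the percentage of spots well above background, which was between 77.4% and 78.7% in T0 and between 75.1% and 81.3% in T2.

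Promoter sequences are shown for the gene groups whose members moved together, the interferon response with MHC class I, MHC class II, the cell cycle and cholesterol synthesis. They are the 250 bases before the start site in RefSeq's annotation of GRCr8, a newer build than that of the array design, and were searched on both strands for motifs chosen with results of these data known, so the matches are descriptions. The first set shows the core of the interferon-stimulated response element (GAAA, any pair of bases and GAAA again) in capitals. Both Tap1 and Ifit3 carry it on the opposite strand, so that its reverse complement is printed.

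B2m, chr3:129549080-129549329, plus strand: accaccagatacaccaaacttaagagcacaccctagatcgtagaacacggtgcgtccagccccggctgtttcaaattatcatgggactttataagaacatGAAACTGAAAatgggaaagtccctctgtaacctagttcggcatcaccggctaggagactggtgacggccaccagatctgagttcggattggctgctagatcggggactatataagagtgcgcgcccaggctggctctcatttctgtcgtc

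Tap1, chr20:4668544-4668793, minus strand: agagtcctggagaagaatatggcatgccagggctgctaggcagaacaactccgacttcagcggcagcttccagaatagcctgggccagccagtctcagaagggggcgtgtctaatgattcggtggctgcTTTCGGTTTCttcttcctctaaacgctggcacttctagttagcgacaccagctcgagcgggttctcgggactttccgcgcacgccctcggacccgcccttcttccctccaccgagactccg

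Ifit3, chr1:241527076-241527325, plus strand: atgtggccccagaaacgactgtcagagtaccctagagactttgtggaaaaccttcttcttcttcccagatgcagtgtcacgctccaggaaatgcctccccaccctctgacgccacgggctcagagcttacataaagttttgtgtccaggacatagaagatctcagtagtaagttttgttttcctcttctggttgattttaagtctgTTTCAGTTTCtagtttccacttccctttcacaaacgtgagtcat

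The second set shows the Y box of MHC class II genes, CTGATTGG, which holds the reverse complement of CCAAT and so overlaps with the CCAAT box.

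RT1-Da, chr20:4515165-4515414, plus strand: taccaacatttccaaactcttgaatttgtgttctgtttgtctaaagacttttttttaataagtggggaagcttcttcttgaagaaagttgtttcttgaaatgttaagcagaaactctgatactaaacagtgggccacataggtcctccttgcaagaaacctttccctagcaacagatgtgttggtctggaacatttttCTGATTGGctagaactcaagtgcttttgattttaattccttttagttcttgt

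RT1-Ba, chr20:4576807-4577056, plus strand: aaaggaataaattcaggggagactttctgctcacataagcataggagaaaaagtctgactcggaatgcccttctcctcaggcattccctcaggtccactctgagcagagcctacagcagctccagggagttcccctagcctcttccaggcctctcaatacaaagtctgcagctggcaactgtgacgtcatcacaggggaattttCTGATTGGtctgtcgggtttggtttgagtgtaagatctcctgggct

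The third set shows CCAAT boxes, or their reverse complement, in a cell cycle gene that rose (Cdk1, named Cdc2 on the array) and in a cholesterol gene that fell.

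Cdk1, chr20:19265043-19265292, plus strand: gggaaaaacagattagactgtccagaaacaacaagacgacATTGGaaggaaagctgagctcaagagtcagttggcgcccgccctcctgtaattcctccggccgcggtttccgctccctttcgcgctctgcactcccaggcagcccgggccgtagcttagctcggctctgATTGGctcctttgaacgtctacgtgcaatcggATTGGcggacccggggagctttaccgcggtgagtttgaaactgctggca

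Hmgcs1, chr2:53382054-53382303, plus strand: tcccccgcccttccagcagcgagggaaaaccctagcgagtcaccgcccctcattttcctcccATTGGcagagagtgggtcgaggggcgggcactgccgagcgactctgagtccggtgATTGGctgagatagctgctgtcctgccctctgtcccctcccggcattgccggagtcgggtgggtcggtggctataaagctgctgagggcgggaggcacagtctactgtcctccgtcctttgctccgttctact

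The response element core was found in 5 of 7 MHC class I promoters and in 5 of the 8 interferon response promoters that the table holds, against 902 of 27457 promoters of all genes (3.29%). It was found in 0 of 8 MHC class II promoters and 0 of 15 cholesterol synthesis promoters. The Y box was found in 4 of 8 MHC class II promoters and 5 of 15 cholesterol synthesis promoters, against 895 of all promoters (3.26%). CCAAT was found in 13 of 15 cholesterol synthesis promoters, which belong to genes that fell, and in 10 of 14 cell cycle promoters, which belong to genes of a list that rose, against 9416 of all promoters (34.3%). The sterol regulatory element TCACNCCAC was found in 0 of the 15 cholesterol synthesis promoters and in 268 of all (0.98%).

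Genes named for the largest rises and falls were picked among those whose T2 and T0 levels did not overlap. Among the largest rises were genes of secreted proteases. Mmp7 encodes matrilysin, a secreted metalloproteinase. Its levels were 3.57, 3.11, 3.28 and 1.37 in T0 replicates 1 to 4 and 13.03, 12.14, 13.00 and 13.70 in T2 replicates 1 to 4. All 4 T2 levels lay far above the T0 levels, which were not well above background on any array, so the rise was at least 492-fold (adjusted p = 2.00e-07). Mmp12, the elastase of macrophages, rose by 8.96 ± 0.83 (adjusted p = 9.68e-09) and was well above background on 1 T0 array. Mmp8, the collagenase of neutrophils, rose at least 29.9-fold.

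Other large rises included receptors known from phagocytes. The scavenger receptor Msr1 rose at least 43.2-fold, Siglec1 (CD169) at least 43.6-fold, the inhibitory receptor Lilrb4 at least 50.4-fold and the osteoclast proton pump subunit Atp6v0d2 at least 85.8-fold. The lipid carrier Fabp4 rose at least 95.6-fold and the chemokine receptor Il8ra (Cxcr1) at least 56.3-fold. Fcrls, a receptor of microglia, stood at 6.91, 7.25, 6.73 and 5.50 in T0 and 13.50, 15.63, 15.16 and 13.64 in T2. Its T2 levels formed a higher pair in session 1 (replicates 2 and 3) and a lower pair in session 2, both above every T0 level (difference 7.88 ± 0.81, adjusted p = 5.19e-08). The interferon-induced membrane protein Ifitm1 rose 186-fold (7.54 ± 0.26), the phospholipase Plbd1 159-fold (7.31 ± 0.27) and Klra5, a lectin-like receptor known from NK cells, 151-fold (7.24 ± 0.29).

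The largest falls were smaller, and the genes concerned mostly dropped to the limit of measurement at T2. Tph2, the tryptophan hydroxylase of serotonergic neurons, went from 7.17, 6.98, 6.58 and 7.01 to 1.87, 4.29, 4.25 and 1.54 (difference -3.95 ± 0.66, adjusted p = 3.68e-05). The levels of T2 replicates 2 and 3 lay over 2 units above those of replicates 1 and 4, and 1 T2 array was well above background. Glp1r, the receptor for glucagon-like peptide 1, fell at least 3.73-fold, and Hapln1, a link protein of perineuronal nets, fell by 3.49 ± 0.82. Others were the immunophilin Fkbp6, which fell at least 6.38-fold, the fetal plasma protein Afp (-3.84 ± 0.60), the muscle proteins Smpx (-3.88 ± 0.56) and Myh8 (-3.55 ± 0.72), and the protocadherin Pcdh12 (-3.23 ± 0.64). In T2, Afp, Myh8 and Pcdh12 were well above background on 2 arrays and Smpx and Hapln1 on 1. Mrgprb2, a receptor known from mast cells, was well above background on every array and went from 10.54, 11.46, 9.99 and 11.43 to 6.99, 9.02, 7.78 and 7.17 (adjusted p = 7.20e-06). The remaining 5 were Car7, Ces3, Pabpnl1, Psgb1 and Arpm1.

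**Figure D2:**
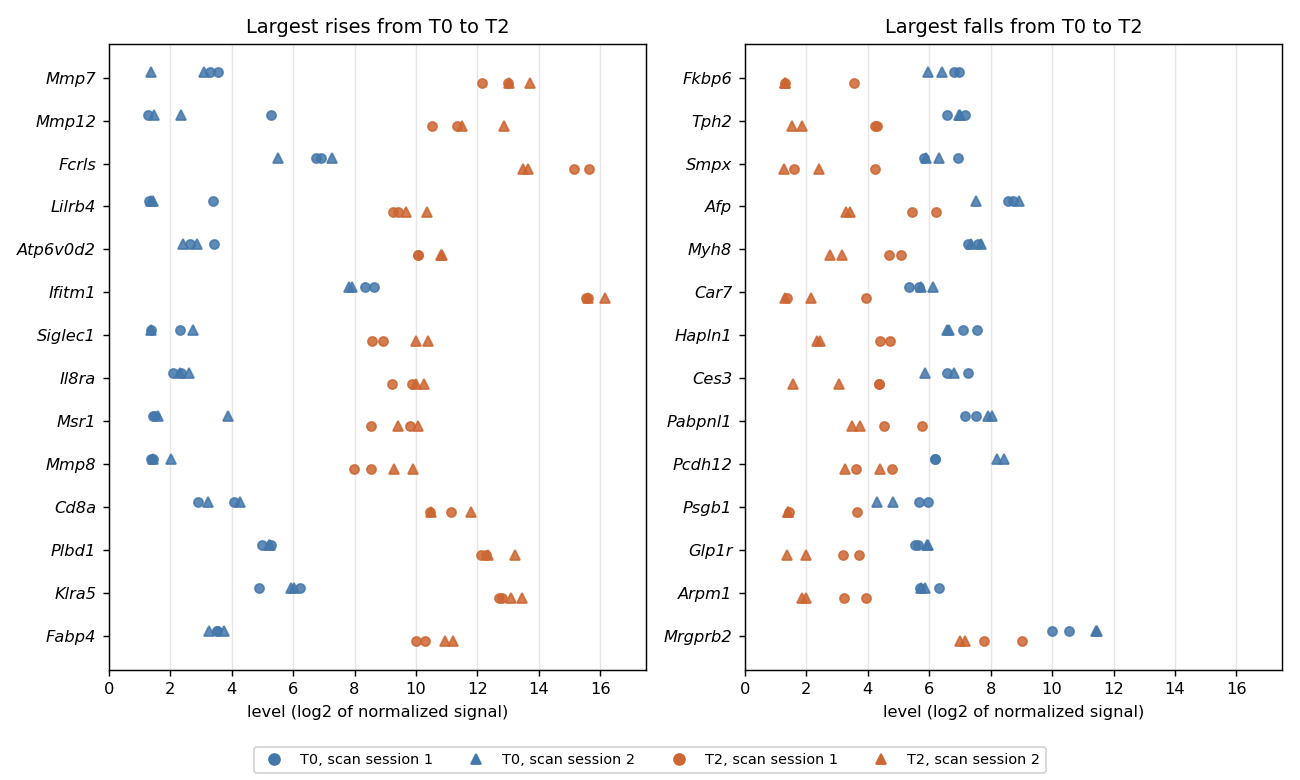
Level (log2 of the normalised signal) of 14 genes with the largest rises (left) and 14 with the largest falls (right) in each of the 4 T0 (blue) and 4 T2 (orange) arrays, with circles for scan session 1 and triangles for session 2. The genes were picked among those whose T2 and T0 levels did not overlap. In Tph2 the T2 arrays of session 2 lie below those of session 1.

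Neuronal transcripts fell. Of 11 pan-neuronal markers, 10 fell and 0 rose, with a median difference of -1.66 against -0.05 over all features, of which 22.2% fell. Snap25, a fusion protein of synaptic vesicles, stood at 15.32, 14.93, 15.07 and 15.02 in T0 and 11.67, 13.45, 13.08 and 11.56 in T2. Every T2 level lay below every T0 level, and T2 replicates 1 and 4 lay lowest (difference -2.65 ± 0.40, adjusted p = 1.17e-05). The neuronal nuclear protein Rbfox3 (NeuN) fell by 2.20 ± 0.41 and the activity-induced neuritin Nrn1 by 2.87 ± 0.39. The exception was Gap43, the growth cone protein, at -0.32 ± 0.19 (adjusted p = 0.203).

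Axonal and synaptic genes showed falls of like size. Among 8 neurofilament and axonal genes, 7 fell (median -1.71), among them the heavy neurofilament Nefh at -2.22 ± 0.30 and the internexin Ina at -2.38 ± 0.36. Of 8 genes that make, load or take up transmitters, 7 fell (median -2.07). The glycine transporter Slc6a5 (GlyT2) stood at 12.89, 12.43, 12.80 and 12.53 in T0 and 8.70, 11.41, 11.20 and 9.12 in T2. No T2 level reached the T0 range, and replicates 1 and 4 were over 2 units below replicates 2 and 3 (difference -2.56 ± 0.53, adjusted p = 3.89e-04). The vesicular glutamate transporter Slc17a6 (VGLUT2) fell by 2.44 ± 0.39, the GABA-synthesising enzyme Gad2 by 2.40 ± 0.48 and the vesicular inhibitory transporter Slc32a1 by 2.25 ± 0.42. Genes of excitatory and of inhibitory transmission were thus among those that fell.

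Receptor and channel genes fell as well. Of 14 glutamate receptor genes, 11 fell (median -1.55), led by the NMDA receptor subunit Grin2a at -2.39 ± 0.37, with Grin1 at -2.11 ± 0.40 and the AMPA receptor subunit Gria1 at -1.87 ± 0.25. Grin2d was not called (0.54 ± 0.63, adjusted p = 0.544), and its T0 levels of 11.21, 13.41, 11.99 and 14.02 were higher in the session 2 arrays than in those of session 1. Of 15 GABA and glycine receptor genes, 12 fell (median -1.77), among them the glycine receptor subunit Glra2 at -2.39 ± 0.40 and the GABA receptor subunit Gabra5 at -2.35 ± 0.29. Among 10 voltage-gated potassium channels measured, 9 fell (median -1.33), with Kcnc1 (Kv3.1) at -2.57 ± 0.41.

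Motor neuron genes and neuropeptides had medians near that of the potassium channels (-1.33). All 6 motor neuron markers measured fell (median -1.26), among them chondrolectin, Chodl, at -1.73 ± 0.23. Choline acetyltransferase, Chat, fell by 0.84 ± 0.30 (adjusted p = 0.0278) and was dim, with T0 levels of 5.04, 5.24, 4.91 and 5.44 and T2 levels of 4.38, 4.52, 4.73 and 3.65. The Chat call was lost without T0 replicate 2, T0 replicate 4 or T2 replicate 4 (differences of -0.81, -0.74 and -0.62). Of 12 neuropeptide genes, 9 fell and 1 rose (median -1.34). Substance P's precursor Tac1 fell by 1.68 ± 0.29 and somatostatin, Sst, by 1.65 ± 0.22. Calca, which encodes the calcitonin gene-related peptide of primary afferents and motor neurons, rose by 0.89 ± 0.28 (adjusted p = 0.0133), from 11.34, 10.34, 10.35 and 10.24 to 11.08, 11.60, 11.67 and 11.51, and T0 replicate 1 lay among the T2 levels.

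The 4 T2 arrays were not alike in these neuronal losses. The median over pan-neuronal markers of the level minus its T0 mean was -2.16, -1.16, -1.44 and -2.06 in T2 replicates 1 to 4, and that of the transmitter handling genes was -2.72, -1.20, -1.55 and -2.75. The deeper falls belonged to replicates 1 and 4, both from session 2. Within session 1 the pan-neuronal median of T2 against T0 was -1.21 and within session 2 it was -2.12, and the median of all features was -0.04 and -0.05. All 8 neuronal lists had the lower median in session 2, as did 26 of 47 other lists. The central myelin median was -0.63 in session 1 and -0.65 in session 2, and that of cholesterol synthesis -1.82 and -1.95. Some lists that rose stood higher in session 2, such as fibrotic matrix (3.12 and 4.06) and the interferon response (2.43 and 3.10). Others did not, such as reactive astrocytes (1.88 and 1.86) and lysosome genes (2.00 and 1.90). Over all called features, each array was placed between the group means, with the T2 mean at 1. T2 replicates 1 to 4 stood at 1.08, 0.85, 0.94 and 1.14, so replicates 1 and 4 lay further from T0 over the called features as a whole. The T0 arrays showed no such split in pan-neuronal markers, with medians of 0.09, -0.04, -0.05 and 0.07. With 2 T2 arrays in each session, a difference between the animals and a difference between the sessions cannot be told apart.

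**Figure D3:**
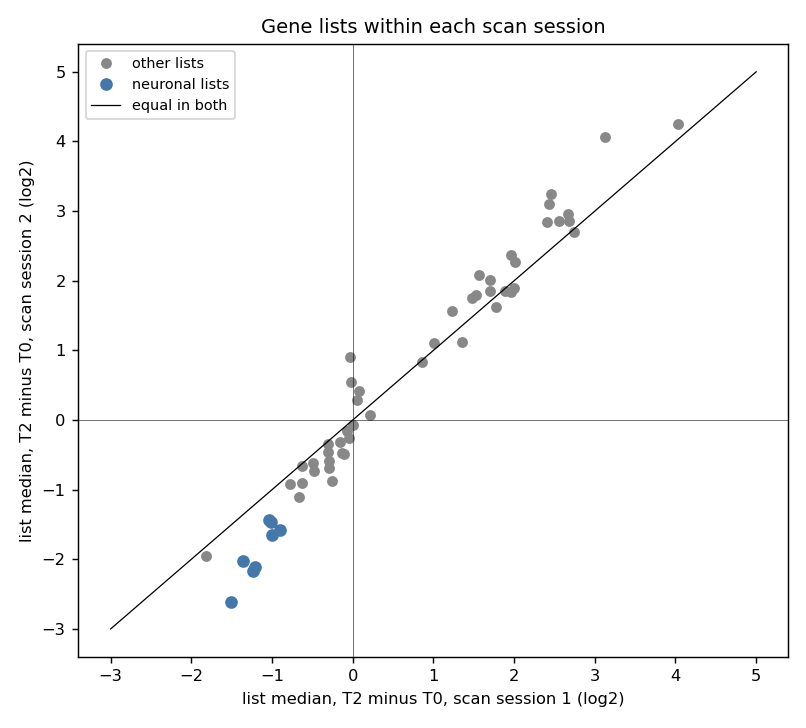
Median difference between T2 and T0 of each of 55 gene lists (log2) in scan session 1 (horizontal axis) and session 2 (vertical axis), 2 arrays of each group per session, with the 8 neuronal lists in blue, the 47 others in grey and a line where both are equal. The neuronal lists lie below the line, with pan-neuronal markers at -1.21 and -2.12.

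Central myelin genes fell, with a median nearer to 0 than those of the neuronal lists. Of 15 oligodendrocyte genes, 12 fell, with a median of -0.76. The myelin oligodendrocyte glycoprotein Mog went from 14.88, 14.99, 15.07 and 14.59 to 14.08, 13.79, 13.73 and 13.38 (difference -1.14 ± 0.15, adjusted p = 1.52e-06). All T2 levels of Mog were below all T0 levels. Fa2h, which hydroxylates the fatty acids of myelin lipids, fell by 1.76 ± 0.18 and the cytoskeletal protein Ermn by 1.47 ± 0.25. The myelin basic protein gene Mbp changed by -0.76 ± 0.27. Its T0 levels were 15.42, 16.36, 15.45 and 16.36, higher in replicates 2 and 4, from session 2. The Mbp call (adjusted p = 0.0282) was lost on leaving out any 1 of T0 replicates 2 and 4 and T2 replicates 2 and 3. Among 6 precursor markers measured, Olig1 fell by 0.96 ± 0.17, Pdgfra rose by 0.90 ± 0.15 and 4 were not called, against 40.0% of all features called. Pdgfra is also made by fibroblasts.

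Peripheral myelin genes went the other way. Of 10 Schwann cell genes, 8 rose and 0 fell (median 2.08, against 17.7% of all features higher). Egr2, the transcription factor that drives myelination in Schwann cells, stood at 5.68, 5.96, 5.89 and 6.09 in T0 and 10.65, 9.93, 10.14 and 10.45 in T2. The groups did not overlap (difference 4.39 ± 0.29, 20.9-fold, adjusted p = 3.08e-11). Among the others, periaxin, Prx, rose by 4.19 ± 0.47, and Pmp2 and the promyelin factor Pou3f1 by 2.08 ± 0.20 and 2.08 ± 0.22. Cdh19 and Drp2 were not called.

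Of 11 reactive astrocyte genes, 10 rose (median 1.91). Vimentin, Vim, stood at 11.56, 12.49, 11.54 and 11.86 in T0 and 16.17, 15.42, 15.48 and 16.31 in T2, with no overlap (difference 3.98 ± 0.23, adjusted p = 2.48e-12). Gfap, the intermediate filament of astrocytes, rose by 1.26 ± 0.29 (adjusted p = 0.0011). Serpina3n was not called (2.10 ± 0.86, adjusted p = 0.0548) although its levels did not overlap. Several of these genes, Vim among them, are also made by macrophages and fibroblasts. Of 11 homeostatic astrocyte genes, 4 fell and 7 were not called, against 40.0% of all features called and 22.2% lower. The gap junction protein Gjb6 fell by 1.71 ± 0.29, the potassium channel Kcnj10 (Kir4.1) by 1.23 ± 0.21 and the glutamate transporter Slc1a2 (GLT-1) by 0.85 ± 0.21. The water channel Aqp4 was at -0.16 ± 0.25 (adjusted p = 0.653).

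Macrophage and microglia genes rose together. All 13 shared markers measured rose (median 2.80). Cd68, a lysosomal protein of phagocytes, stood at 9.47, 9.20, 9.51 and 8.83 in T0 and 15.95, 15.94, 15.99 and 16.38 in T2, which is a 112-fold rise (6.81 ± 0.16, adjusted p = 8.62e-19) with no overlap. The lipid-sensing receptor Trem2 rose by 2.82 ± 0.14, the integrin Itgam (CD11b) by 2.18 ± 0.45 and Aif1 (Iba1) by 1.84 ± 0.20. Markers of resident microglia had a smaller median. Of 7 homeostatic microglia genes measured, 4 rose and 0 fell (median 1.06). The purinergic receptor P2ry12 went from 12.73, 13.07, 13.03 and 12.60 to 13.59, 13.95, 13.97 and 13.93, 1.00 ± 0.31 (adjusted p = 0.0111). Tmem119 was not called, and its T0 levels of 5.88, 8.14, 6.39 and 8.43 were high in session 2 and low in session 1.

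Genes for the uptake and breakdown of lipids and proteins accompanied them. All 15 lipid-handling genes of phagocytes rose (median 3.04). Gpnmb, a glycoprotein of lipid-laden macrophages, stood at 10.64, 10.96, 11.02 and 10.65 in T0 and 17.03, 16.71, 16.79 and 17.19 in T2. The groups were separated by over 5 units (difference 6.11 ± 0.17, 69.3-fold, adjusted p = 2.31e-17). The cholesterol exporter Abca1 rose by 4.86 ± 0.33, the scavenger receptor Cd36 by 4.84 ± 0.40, osteopontin, Spp1, by 2.59 ± 0.20 and the lipoprotein Apoe by 0.56 ± 0.13. All 13 lysosome and cathepsin genes rose (median 1.95), from Lamp2 at 0.72 ± 0.10 to the collagen-degrading Ctsk at 5.57 ± 0.19.

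Immune recognition genes rose in number. All 15 complement genes rose (median 2.78), with the protease Cfd (adipsin) at 5.16 ± 0.18, C1qc at 3.43 ± 0.16, the C1 inhibitor Serping1 at 3.56 ± 0.15 and C3 at 1.33 ± 0.47. The call for C3 (adjusted p = 0.0272) was lost on leaving out any 1 of replicates 1 and 3 of either group. All 7 Fc receptor genes rose (median 2.70). All 7 MHC class I genes measured rose (median 1.54). B2m, the light chain of MHC class I, stood at 15.44, 15.25, 15.52 and 15.19 in T0 and 16.69, 16.75, 16.72 and 16.56 in T2. The spread within each group was small beside the difference of 1.33 ± 0.10 (adjusted p = 2.77e-10). The peptide transporter Tap1 rose by 2.81 ± 0.35 and the immunoproteasome subunit Psmb8 by 2.25 ± 0.28.

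Of 9 MHC class II genes measured, 8 rose (median 1.70). The invariant chain Cd74 rose by 1.54 ± 0.45 and RT1-Da by 1.80 ± 0.48 (adjusted p = 0.00415). Ciita, the transactivator of these genes, was not well above background on any T0 array and rose at least 3.63-fold. RT1-Bb stood at 4.90, 8.82, 8.45 and 8.78 in T0 and 10.51, 10.23, 10.64 and 11.09 in T2. The low level of T0 replicate 1 set it apart from the other 3 control arrays. RT1-Ba rose by 0.96 ± 0.37 (adjusted p = 0.0433), a call that was lost in turn without T0 replicate 1 or 3 or any of the 4 T2 replicates, and by single probes its difference was -0.29.

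Interferon-induced genes and chemokines rose. Of 15 interferon response genes, 14 rose (median 2.78), and Ifit1 was not called. Mx1, an antiviral GTPase, rose by 4.95 ± 0.65, Irf7 by 3.30 ± 0.45 and Ifit3 by 3.37 ± 0.55, and both Mx1 and Ifit3 were well above background on 2 of 4 T0 arrays. Of 15 chemokines measured, 14 rose (median 4.13). Ccl2, which draws monocytes, stood at 7.97, 7.27, 7.27 and 6.86 in T0 and 12.08, 11.85, 11.53 and 12.31 in T2 (difference 4.60 ± 0.34, adjusted p = 1.73e-10). No T2 level came within 3 units of the T0 levels. Cxcl13, which draws B cells, rose by 4.70 ± 0.66 and Cxcl1, which draws neutrophils, by 6.62 ± 0.56, its T0 levels being 4.50, 4.62, 1.43 and 4.64. The neuronal chemokine of the list was the one not called. In all, 6 of 8 chemokine receptors rose as well.

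Inflammatory cytokines rose in part. Of 14 cytokine and receptor genes, 10 rose and 4 were not called, against 17.7% of all features higher and 40.0% called. Interleukin 1 beta, Il1b, rose by 1.66 ± 0.26 (adjusted p = 1.79e-05). Tnf was well above background on 0 T0 and 2 T2 arrays and was not called (0.35 ± 0.32, adjusted p = 0.431), and Il6 and Il10 were not well above background on any array of either group. In JAK/STAT signalling, 11 of 14 genes rose and Cish fell (median 0.84).

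Lymphocyte markers gave an uneven picture. Of 11 T cell genes measured, 9 rose (median 2.04). Cd8b rose by 5.96 ± 0.44, from 6.28, 6.28, 6.22 and 5.95 to 12.05, 11.82, 12.02 and 12.68, with no overlap, and Cd8a, well above background on 1 T0 array, by 7.35 ± 0.54. In rats Cd8 is also made by macrophages and NK cells, and Cd4 by macrophages and microglia. The T cell receptor component Cd3e stood at 1.40, 1.33, 1.43 and 1.41 in T0 and 3.89, 3.53, 3.40 and 5.57 in T2. It was well above background on 0 T0 and 2 T2 arrays, so that its rise was at least 1.05-fold, and the kinase Lck was not called (0.53 ± 0.22, adjusted p = 0.0653). Of 6 B cell genes measured only the adaptor Blnk rose (2.61 ± 0.32), which macrophages also make, and 3 of the 6 were not well above background on any T0 or T2 array. Of 9 NK cell genes, 6 rose and granzyme A, Gzma, fell by 1.39 ± 0.34. Of all features, 17.7% rose and 22.2% fell.

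Neutrophil and monocyte genes stood highest in 1 array. Of 11, 6 rose (median 1.62), against 17.7% of all features. The medians of T2 replicates 1 to 4 were 0.95, 1.38, 1.17 and 3.14. The calgranulin S100a9 stood at 6.66, 6.45, 7.11 and 9.13 in T2 and 5.53, 6.30, 5.50 and 5.52 in T0, highest in T2 replicate 4 and called at 1.62 ± 0.50 (adjusted p = 0.0116), but not without that array (1.03). Its partner S100a8, at 3.04, 4.00, 3.03 and 6.08 in T2, was not called (1.57 ± 0.71, adjusted p = 0.0825). The monocyte ficolin Fcn1 rose by 4.20 ± 0.26 and did so in all 4 T2 arrays, at 11.23, 11.50, 11.41 and 12.17 against 7.36, 7.45, 7.34 and 7.33.

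**Figure D4:**
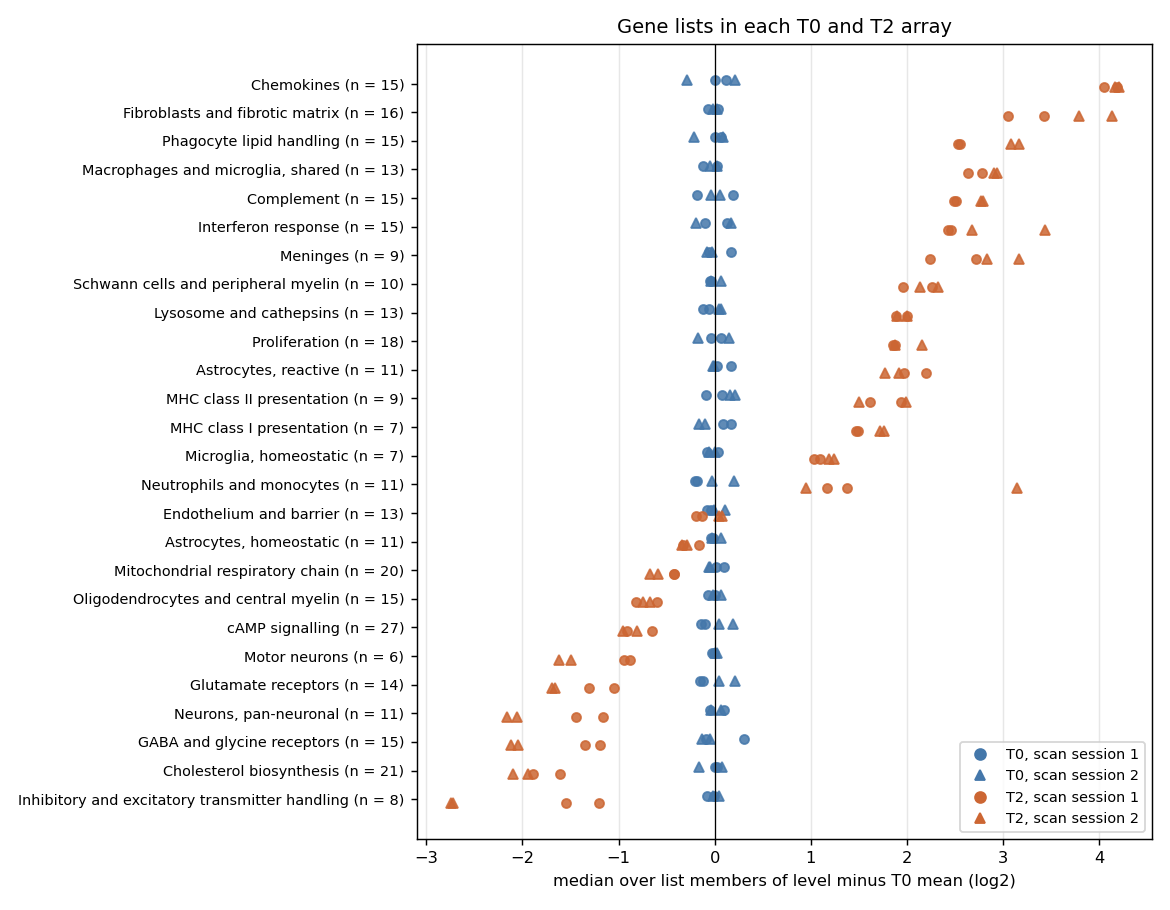
Median over the measured members of 26 gene lists (rows, number of members in brackets) of the level minus the member's T0 mean (log2) in each T0 (blue) and T2 (orange) array, with circles for scan session 1 and triangles for session 2. Neuronal lists lie lower, and fibrotic matrix higher, in the T2 arrays of session 2. In T2, central myelin lies between -0.82 and -0.60 and cholesterol synthesis between -2.10 and -1.61. T2 replicate 4 stands at 3.14 for neutrophils and monocytes.

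Matrix genes of the fibrotic core rose. Of 16 fibroblast and fibrotic matrix genes, 14 rose and 1 fell (median 3.59). Col3a1, a fibrillar collagen, stood at 9.48, 9.19, 9.92 and 8.73 in T0 and 15.76, 15.21, 15.47 and 15.99 in T2. The lowest T2 level was over 5 units above the highest T0 level (difference 6.28 ± 0.50, 77.6-fold, adjusted p = 6.46e-10). Col1a1 rose by 4.36 ± 0.40, the collagen-binding Lum by 4.55 ± 0.52, the matricellular Postn by 4.38 ± 0.42 and Sparc by 0.58 ± 0.10. The member that fell was Thy1 (-2.26 ± 0.34), which neurons make as well. All 11 basement membrane genes measured rose (median 1.75), with the laminin Lamb1 at 2.94 ± 0.37.

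Of 16 metalloproteinase and inhibitor genes, 13 rose and Timp4 fell by 0.87 ± 0.24. Plau (urokinase) rose by 5.41 ± 0.29 and was well above background on 1 T0 array, and the gelatinase Mmp9 rose at least 4.1-fold. Proteoglycans of the glial scar and the perineuronal net did not move as one. Of 11, 4 rose and 4 fell, against 17.7% and 22.2% of all features. The tenascin Tnc rose by 3.32 ± 0.43, versican, Vcan, by 0.63 ± 0.13 and neurocan, Ncan, by 0.44 ± 0.12. Aggrecan, Acan, the main proteoglycan of perineuronal nets, went from 8.07, 8.00, 7.72 and 8.11 to 4.74, 6.99, 6.05 and 5.53, with every T2 level below the T0 levels (difference -2.15 ± 0.32, adjusted p = 8.03e-06).

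Meningeal genes rose in tissue cleared of dura, and which cells made their transcripts was not tested. Of 9 measured, 7 rose (median 2.87). The growth factor Igf2 stood at 13.42, 13.27, 13.27 and 13.21 in T0 and 16.46, 16.29, 16.32 and 16.30 in T2, with little spread on either side (difference 3.05 ± 0.36, adjusted p = 4.52e-07). The GABA transporter Slc6a13 (GAT2), made by leptomeningeal cells, rose by 3.25 ± 0.45. The imprinted RNA H19, which lies next to Igf2, rose by 6.05 ± 0.49, from 3.80, 4.24, 4.53 and 2.73 to 8.94, 10.18, 9.98 and 10.40, and was well above background on 2 T0 arrays.

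Of 13 endothelial genes (median difference -0.03), 3 rose and 2 fell, against 40.0% of all features called. The lipid transporter Mfsd2a, needed for the barrier, fell by 1.40 ± 0.27 (adjusted p = 1.59e-04). Tie1, a receptor of growing vessels, rose by 1.47 ± 0.40, with T0 levels of 5.63, 6.67, 5.58 and 7.09 and T2 levels of 7.97, 7.40, 6.88 and 8.61 that overlapped. Of 7 pericyte and smooth muscle genes measured, 3 rose, and of 9 ependymal genes, 1 rose and 1 fell, against the same 40.0% of all features. Of 10 neural progenitor genes, 2 rose and 2 fell, against the same 40.0% of all features, with the Notch target Hes5 falling by 1.33 ± 0.20 and the radial glia protein Fabp7 rising by 0.96 ± 0.18.

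Cell cycle genes were higher. Of 18 measured, 17 rose (median 1.97). Ccnb2, a mitotic cyclin, stood at 5.85, 6.15, 5.12 and 5.53 in T0 and 8.82, 8.97, 8.96 and 8.98 in T2. The T2 levels were within 0.2 units of each other (difference 3.27 ± 0.23, adjusted p = 1.13e-10). The Ki-67 antigen Mki67 rose by 3.33 ± 0.26, topoisomerase Top2a by 3.13 ± 0.24, Ccnb1 by 2.76 ± 0.21 and the ribonucleotide reductase subunit Rrm2 by 1.97 ± 0.21.

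Cholesterol synthesis was lower as a whole pathway. All 21 genes of the list fell (median -1.88, against 22.2% of all features lower). Hmgcs1, which makes the precursor of mevalonate, stood at 14.42, 14.84, 14.32 and 14.35 in T0 and 11.78, 12.21, 11.17 and 11.32 in T2. The T2 levels lay 2 units or more below every T0 level (difference -2.86 ± 0.20, 7.26-fold lower, adjusted p = 9.94e-11). The isomerase Idi1 fell by 2.36 ± 0.19 and the sterol sensor Insig1 by 2.22 ± 0.24. The smallest fall in the list, of 0.53 ± 0.13, was that of the sterol isomerase Ebp. Of 13 fatty acid and myelin lipid genes, 9 fell (median -0.76). The desaturase Scd1 fell by 2.72 ± 0.22 and the synthase Fasn by 0.96 ± 0.13.

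Energy metabolism genes moved in both directions. Of 20 respiratory chain genes, 17 fell by small amounts (median -0.51), such as cytochrome c, Cycs, at -0.79 ± 0.09 and Ndufa4 at -0.76 ± 0.14. In glycolysis, 10 of 19 genes fell and 3 rose, against 22.2% and 17.7% of all features. The 3 that rose were the hexokinases Hk3 (6.79 ± 0.24, 111-fold) and Hk2 (2.26 ± 0.30) and lactate dehydrogenase A, Ldha (1.01 ± 0.18). Hk3, the isoform of myeloid cells, stood at 5.76, 5.05, 5.13 and 4.76 in T0 and 11.73, 11.71, 11.87 and 12.56 in T2, and the neuronal enolase Eno2 at 15.36, 15.38, 15.37 and 15.51 and 13.24, 14.36, 14.34 and 13.41. The groups were apart in both genes, in opposite directions. Of 13 clock genes, 4 fell and 1 rose, against 40.0% of all features called.

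The study followed cAMP signalling in particular. Of 27 genes of the pathway and its targets, 18 fell and 2 rose (median -0.84). The exchange factor EPAC2 (Rapgef4), activated by cAMP apart from protein kinase A, stood at 8.42, 8.12, 7.95 and 7.97 in T0 and 5.56, 6.33, 5.86 and 5.21 in T2. Its T2 levels were all below its T0 levels (difference -2.38 ± 0.27, adjusted p = 2.34e-07). The regulatory kinase subunit Prkar1b fell by 1.99 ± 0.37. The adenylate cyclase Adcy4 rose by 3.17 ± 0.43 and the transcription factor Creb1 by 0.51 ± 0.12. Brain-derived neurotrophic factor, Bdnf, a target of that factor, fell by 1.32 ± 0.32.

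Genes that bear on axon growth moved both ways. Of 14 neurotrophic factors and receptors, 5 fell and 3 rose, against 22.2% and 17.7% of all features. The low-affinity neurotrophin receptor Ngfr, made by Schwann cells after denervation, rose by 1.88 ± 0.22. Of 14 growth inhibitors and receptors, 9 fell and 1 rose (median -0.67). Nogo, Rtn4, fell by 0.70 ± 0.12, the myelin glycoprotein Omg by 1.48 ± 0.17, and the semaphorin receptor Nrp1 rose by 2.41 ± 0.34. Of 9 regeneration-associated genes, 3 rose and 3 fell (median -0.32), against 17.7% and 22.2% of all features. The pan-neuronal marker Stmn2 and Arg1 were among those that fell. Atf3, a factor induced by axotomy and stress, rose by 4.66 ± 0.23, and Jun by 1.01 ± 0.13.

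Iron handling genes rose in 8 of 12 cases (median 1.50), against 17.7% of all features. Hmox1, which breaks down heme, stood at 10.36, 10.26, 10.16 and 10.46 in T0 and 13.46, 12.90, 13.04 and 13.72 in T2, without overlap (difference 2.97 ± 0.27, adjusted p = 6.27e-09). The transferrin receptor Tfrc fell by 1.12 ± 0.18. The remaining lists moved in part. All 6 thoracic Hox genes measured fell (median -0.72), of which Hoxd9 had T0 levels of 8.68, 6.96, 5.56 and 8.67 and T2 levels of 5.65, 6.06, 6.03 and 3.94 that overlapped. Of 9 mast cell genes, 2 rose and 1 fell, against 40.0% of all features called, and 3 were not well above background on any T0 or T2 array.

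Comparisons with T1 and T4 place T2 in time by differences that leave the T0 levels out. The spread behind their calls was estimated over all 28 samples, T0 among them. Against T1, the cord 1 week after injury, 525 features were called at T2 (1.48%), 289 higher (0.815%) and 236 lower (0.665%), and 4932 had an unadjusted p under 0.05. The count rests on single arrays. It was 182 without T2 replicate 1, 248 without T2 replicate 3, 283, 251 and 278 without T1 replicates 1, 2 and 4, and 803 without T1 replicate 3. T1 and T4 each had 1 array in session 1, which matched its own scanner output. The other 3 of each group were from session 2 and matched outputs deposited under other samples.

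Of 10 Schwann cell genes, 4 were higher at T2 than at T1. Prx went from 6.85, 9.34, 8.03 and 7.54 at T1 to 10.39, 9.57, 10.51 and 10.34 at T2 (2.27 ± 0.47, adjusted p = 0.0125). Pou3f1 rose by 1.45 ± 0.22 and Pmp22 by 0.72 ± 0.12. The Prx call was lost without T2 replicate 1 or T1 replicate 1. Of 9 meningeal genes, 3 rose, with Igf2 going from 13.82, 14.25, 13.76 and 14.75 to 16.46, 16.29, 16.32 and 16.30 (2.20 ± 0.36, adjusted p = 0.00229). Granzyme C, Gzmc, rose at least 2.94-fold, the inflammasome protein Nlrp6 by 2.51 ± 0.62 and the NK cell receptor Ly49i2 by 2.49 ± 0.60, and each of these calls was lost without several of the arrays. At T1, Nlrp6 was well above background on 3 arrays and Ly49i2 on 1.

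Several genes were lower at T2 than at T1. Trem1, a receptor of neutrophils and monocytes, went from 9.18, 8.67, 8.37 and 8.61 to 5.39, 5.38, 5.75 and 6.76 (-2.89 ± 0.34, adjusted p = 7.55e-05). The amino acid transporter Slc38a4 fell at least 4.77-fold and the secreted lectin Reg1a at least 1.77-fold, and coagulation factor F13a1 fell by 2.44 ± 0.50, a call lost without T2 replicate 3. Arginase 1, Arg1, a marker of alternatively activated macrophages, went from 13.39, 13.05, 13.36 and 12.65 at T1 to 10.77, 11.08, 11.03 and 11.37 at T2 (-2.05 ± 0.35, adjusted p = 0.00243), and the latter lay below the T0 levels of 11.91, 11.98, 11.88 and 11.97. Its fall against T0 (-0.88 ± 0.35, adjusted p = 0.046) was no longer called without any 1 of the 4 T0 arrays or without T2 replicate 1, 2 or 3. Of 18 cell cycle genes, 10 fell, with Ccnb1 at -1.15 ± 0.21 and Rrm2 at -1.02 ± 0.21, as did 4 of 16 fibrotic matrix genes, with Postn at -1.73 ± 0.42. Hmox1 fell by 1.46 ± 0.27 and Ldha by 1.04 ± 0.18. The Rrm2 call was lost without T2 replicate 1, and that of Postn on leaving out any 1 of T2 replicates 1, 2 and 3 and T1 replicates 1, 2 and 4.

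Against T4, the cord 4 weeks after injury, 27 features were called (0.0761%), 18 higher at T4 (0.0507%) and 9 lower (0.0254%), with 3198 at an unadjusted p under 0.05. This count too rests on single arrays, as it was 81 without T4 replicate 4, 40 without T2 replicate 2, between 4 and 9 without T2 replicate 1, 3 or 4, and 1, 2 and 4 without T4 replicates 1, 2 and 3. H19 went from 8.94, 10.18, 9.98 and 10.40 at T2 to 6.87, 6.99, 7.58 and 7.20 at T4 (-2.71 ± 0.49, adjusted p = 0.0309). Rrm2, Ccnb1 and the syndecan Sdc1 fell by 1.14 ± 0.21, 1.07 ± 0.21 and 0.88 ± 0.17. Dao, an oxidase of D-serine made by astrocytes, went from 9.78, 10.22, 10.57 and 10.58 to 11.74, 11.64, 11.36 and 11.05 (1.16 ± 0.22, adjusted p = 0.0351), near its T0 levels of 11.44, 11.86, 11.68 and 11.93. The glial receptor Megf11 rose by 0.95 ± 0.16, as did Abcc8 and Lrriq1 by 0.96 ± 0.18 and 1.01 ± 0.20. These 8 genes were picked among those whose T2 and T4 levels did not overlap. Each of the 8 calls was lost on leaving out any 1 of T2 replicate 3 and T4 replicates 1 and 2. Without T4 replicate 3, 7 of the 8 calls were lost, that of H19 among them. The H19 call was lost without T2 replicate 2 or 4 as well.

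The other weeks were compared with the same 4 T0 arrays, so those comparisons are not independent of T2 against T0 and are given side by side only. Against T0, 15657 features were called at T1 (44.1%, 25.1% lower), 13638 at T4 (38.5%, 21.0% lower) and 14098 at T8, the cord 8 weeks after injury (39.7%, 21.5% lower). In the order of the weeks, T1 first, the pan-neuronal median was -1.51, -1.66, -1.59 and -1.73, and that of cholesterol synthesis -1.64, -1.88, -2.02 and -2.12. Cell cycle genes had medians of 2.93, 1.97, 1.60 and 1.20. Fibrotic matrix stood at 4.30, 3.59, 2.37 and 2.90, and meningeal genes at 1.60, 2.87, 2.50 and 2.93.

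**Figure D5:**
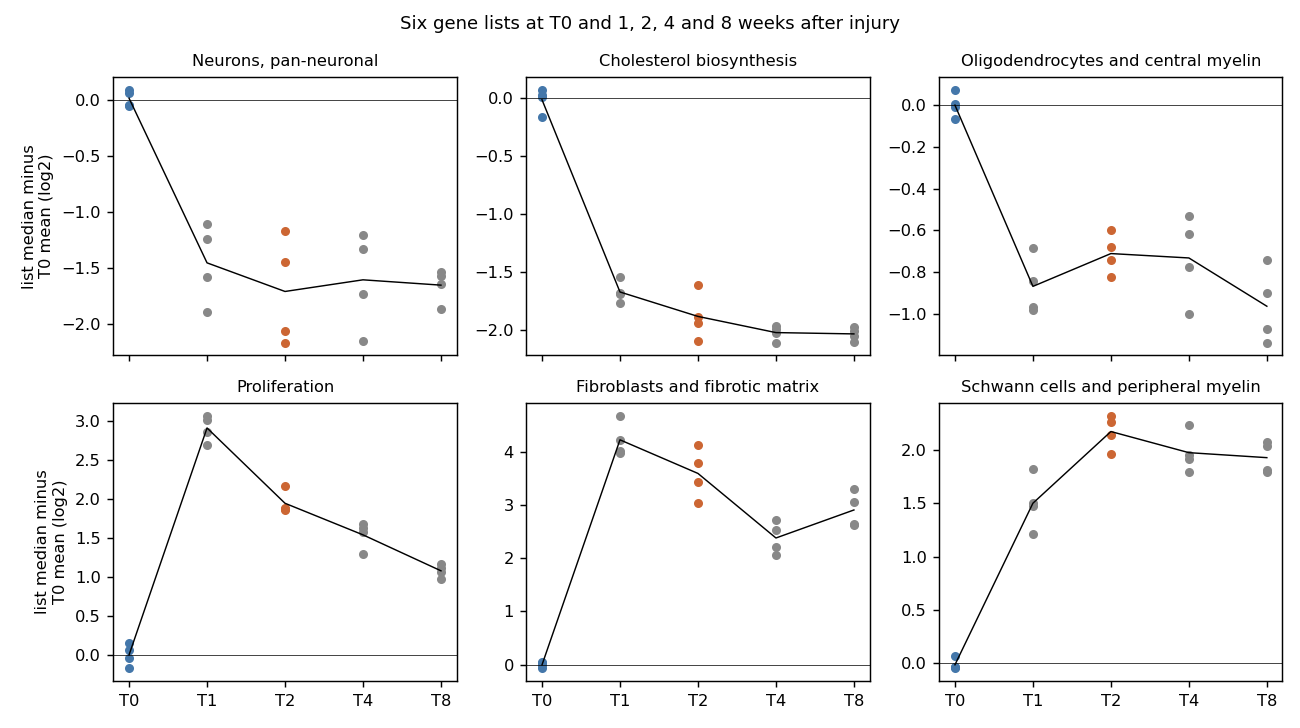
Median over list members of the level minus the member's T0 mean (vertical axes, log2, scaled separately) for 6 gene lists in each of 4 arrays at T0 (blue), T2 (orange) and 1, 4 and 8 weeks after injury (T1, T4 and T8, grey), with a line through the group means. The T2 arrays of the pan-neuronal list lie between -2.16 and -1.16, and the cell cycle list has its largest values at T1.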

How the data were processed

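The deposited value table holds log2 expression values, which the authors made by Feature Extraction (version 10.7.1.1 per the file headers) and quantile normalisation over all 28 single-dye arrays. Its rows were named through the feature numbers of the deposited scanner outputs, whose intensity values and background flags per spot were used for alternatives and detection. Of 45018 spots, 1639 controls were left out, the other 43379 were averaged to 41012 probes and these to 35469 features by gene name (4498 had several probes). Scanner outputs were matched to columns by rank correlation (1.0 for the match). Of 17828 probes with a RefSeq accession, 16751 were found in RefSeq, and 652 of 681 list entries were on the array. Mki67 and Rapgef4 were matched to the array by probe description and Rbfox3 by a synonym. No column lacked a sample.

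Differences were fitted with limma 3.58.1 in R 4.3.3 (lmFit and eBayes, 1 mean per group, all 28 samples) with Benjamini-Hochberg adjustment over all features, and the script was checked on simulated data. Named genes were the 15 largest called rises and falls for T2 against T0 and the 5 largest for T2 against T1 and T4 against T2, with a gene symbol, non-overlapping groups and spots well above background on all 4 arrays of the brighter group (4 falls met this for T4 against T2), plus the leading, defining and opposed members of the lists. Some genes that met the rule are not reported here. Members and lists were chosen with earlier results of these data known. Where a gene was not well above background on any array of its dim group, a fold is given as a bound, against the higher of its own level and the lowest level well above background. The samples of a group are called biological replicates with no more detail, so p-values measure only the spread between these samples. Alternatives were other sample sets, variance priors, dim-probe filters, probe summaries, normalisations from the scanner outputs (background correction by normexp used the median signal, since 8 of 28 outputs held the mean), slide, session and replicate blocks, and leaving out each replicate. The depth of an array has no count, so its number of arrays limits the precision. Columns and figures were handled in Python 3.11.15 with pandas 2.3.3, numpy 2.4.6 and matplotlib 3.10.9.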

Additional observations from a re-analysis of the deposited data

Results flagged for a closer look

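Single arrays stood apart from the other 3 of their group by Dixon's gap ratio in 20 of 362 pairs of a gene and a group and in 4 of 110 pairs of a list and a group. Chance sets apart about 1 in 20 groups. In T2 replicate 4, the outlying levels were Ifitm1 at 16.15, Cd68 at 16.38, Mki67 at 10.19, Nrp1 at 10.21 and Tnnt3 at 7.25, and the lists were proliferation at 2.16 and red blood cells at 0.78. In T2 replicate 2 they were Fkbp6 at 3.56 and Psgb1 at 3.64, and in T2 replicate 1 P2ry12 at 13.59 and Ccnb2 at 8.82. In T0 replicate 2 they were Msr1 at 3.88, Mmp8 at 2.01, S100a9 at 6.30, Tnc at 5.80 and the Schwann cell list at 0.068. In T0 replicate 1 they were Calca at 11.34 and RT1-Bb at 4.90, in T0 replicate 3 Lilrb4 at 3.40, Cxcl1 at 1.43, Tnnt3 at 3.95 and the neurofilament list at -0.17, and in T0 replicate 4 Irf7 at 9.92 and Eno2 at 15.51. Levels are log2 values, and list values are medians of the level minus the T0 mean.

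Time points that differed by the limma fit (T2 minus T1, log2) were these. Higher at T2 were Nlrp6 by 2.51, Ly49i2 by 2.49, Gzmc by 2.43, Prx by 2.27, Igf2 by 2.20, Pou3f1 by 1.45, Serping1 by 0.82, Pmp22 by 0.72 and Megf11 by 0.69. Lower at T2 were Trem1 at -2.89, Slc38a4 at -2.85, F13a1 at -2.44, Reg1a at -2.32, Arg1 at -2.05, Postn at -1.73, Hmox1 at -1.46, Ccnb1 at -1.15, Tfrc at -1.13, Ldha at -1.04, Rrm2 at -1.02, Mki67 at -1.01, Ccnb2 at -1.0, Spp1 at -0.89, Sdc1 at -0.85, C1qc at -0.72 and Vcan at -0.72. For T4 minus T2, Dao differed by 1.16, Lrriq1 by 1.01, Abcc8 by 0.96, Megf11 by 0.95, H19 by -2.71, Rrm2 by -1.14, Ccnb1 by -1.07 and Sdc1 by -0.88.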

How the results depend on the processing

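For T2 against T0, most alternatives moved the count of 14176 by less than 1.5 times. The exceptions were scan session 1 alone (9062, from 2 arrays a group), a 2-fold minimum (6713, with 365 list members) and scanner outputs taken for the samples they were filed under (1, with 100% lower, and 0 list members). Leaving out each replicate gave between 12394 (without T2 replicate 4) and 14224 (without T2 replicate 2), with 54.8 to 56.0% lower and 456 to 485 list members. Of 728 values of the 28 named genes over 26 alternatives other than the deposited scanner outputs, 717 kept their direction and call, and 20 of the genes did so in all 26. These genes were chosen as the largest called changes of the same arrays, so their persistence was largely set by that choice.

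The smaller comparisons moved more, from 525 for T2 against T1 and 27 for T4 against T2. The counts were 115 and 0 with only the groups compared, 833 and 124 (60.5% lower) with the time course alone, 790 and 83 (45.8% lower) with the slide as a random block, 905 and 86 with the session as a term, 220 (79.5% lower) and 112 (4.46% lower) with undisputed arrays, 193 and 13 at a 2-fold minimum, and 0 and 0 in session 1 alone, session 2 alone or with the deposited scanner outputs. For T4 against T2, they were 49 with a trended robust prior, 57 without dim features, 51 with the 75th percentile and 72 with normexp. With the 75th percentile the lower share was 31.7% for T2 against T1 (45.0% as reported) and 60.8% for T4 against T2 (33.3% as reported). Leaving out each replicate gave 182 to 803 and 1 to 81. The cause was not tested.

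Replicate numbers did not pair the samples (same-number correlations of -0.16, -0.37, 0.40 and 0.45). With the replicate block, 13876, 397 and 11 features were called. Leaving out outlier spots, an alternative chosen after seeing the data, gave 14242, 531 and 27.

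Directions reversed for RT1-Ba by single probes (-0.29). With the deposited scanner outputs they reversed for Pcdh12 (0.77), Chat (0.46), Serpina3n (-1.01), Aqp4 (0.14), Tnf (-0.075), Il6 (-0.11), Gzma (0.44), S100a8 (-0.35) and Hes5 (0.20). With the same outputs they reversed for T2 against T1 for Rrm2 (0.23), Ccnb1 (0.16), Mki67 (0.13) and Ccnb2 (0.22). For T4 against T2 they did so for Dao (-0.30), Abcc8 (-0.034), H19 (0.74), Rrm2 (0.35), Ccnb1 (0.57) and Sdc1 (1.04). Signal over background limits the dim genes given as bounds.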

Other observations

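Some features had 1 or 2 T2 arrays far from the others. Siat7E stood at 15.84 in T2 replicate 1 and between 4.80 and 4.99 in the other 3, and Fuk reached 14.78 in the same array. Ngef reached 17.03 in T2 replicate 4. Znf498 stood at 8.99 and 8.95 in T2 replicates 1 and 4 and at 5.16 and 4.98 in replicates 2 and 3. RatNP-3b, a neutrophil defensin, reached 8.36 and the eosinophil protein Prg2 9.44 in T2 replicate 4. These features were chosen after their values were seen, for their spread within T2.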
